A study of Mus musculus with 6 samples.

Results

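Neuronal and synaptic adhesion genes, with a few factors that astrocytes secrete at synapses, were followed in hippocampus of C57BL/6J mice after knockdown of Hepacam. The set holds 38 genes, chosen by symbol from families of known function, with earlier results of these data known, out of 29872 genes in the files, and all 38 were found. Hepacam encodes hepaCAM, an adhesion protein of the immunoglobulin (Ig) family on astrocytes, and is itself no member. In the shHepaCAM group (3 libraries, genotype labelled HepaCAM knockdown), an adeno-associated virus (AAV) injected into the CA1 region on both sides lowered hepaCAM by a short hairpin RNA. The shControl group (3 libraries) has the genotype label WT, and the labels do not say whether its mice received a vector, a control hairpin or an injection. Age, sex, the promoter of the vector and the number of mice behind a library do not stand in the sources used here. RNA came from the whole hippocampus, so cells outside the injected field are part of every library.

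Adhesion molecules hold pre- and postsynaptic membranes in register and help set what kind of synapse forms. Presynaptic neurexins bind postsynaptic neuroligins and leucine-rich repeat proteins of the LRRTM group, while SynCAMs, NCAMs and cadherins bind mostly their own kind across the cleft. Contactins, contactin-associated proteins and L1 family members organise the axon, its initial segment and the junctions beside the nodes of Ranvier. Astrocytes add secreted factors: hevin (Sparcl1) promotes excitatory synapse formation, SPARC opposes hevin, and the glypicans encoded by Gpc4 and Gpc6 recruit glutamate receptors.

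Between 14903198 and 17341842 reads stood behind each library. Hepacam averaged 35.6 ± 1.98 RPKM (SD, n = 3) in shControl and 22.6 ± 1.76 RPKM (SD, n = 3) in shHepaCAM libraries, 36.3% lower (limma adjusted p = 0.00924). The adjusted p for Hepacam was 0.0526 without shControl replicate 3. RPKM is the read count of a gene divided by its length and by the depth of the library, so levels can be set side by side between genes. The labels do not say that libraries came from separate mice, and p-values measure only the spread between these libraries. Choroid plexus markers set apart shControl replicate 1 and shHepaCAM replicate 3, whose 8 markers summed to 119 and 72.7 RPKM, against 2024 to 4877 RPKM in the other 4 libraries. Without both, Hepacam missed the threshold (adjusted p = 0.0695). Where 3 values of a group are listed, they are replicates 1, 2 and 3 in that order.

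Few of the adhesion genes passed the test. Of 36 members whose mean level reached 1 RPKM, 1 was higher and 2 were lower in shHepaCAM at a limma adjusted p of 0.05, and 33 did not pass. Cntnap1, a protein of the axon beside the nodes of Ranvier, and Cdh9, a cadherin of dentate and CA3 synapses, fell. Gpc4, a glypican that astrocytes release, rose. The 3 called members are 8.33% of those tested, against 6.07% of all 13864 genes tested. Called lower were 5.56% of members against 1.84% of all genes, and called higher 2.78% against 4.23%. The median log2 change of the members was -0.01 on the log2(RPKM + 1) scale, and that of all genes tested was 0.05. Of the members, 18 changes were positive and 18 negative, but when libraries were scaled to their median gene 10 were positive and 26 negative, the median of all genes then moving by -0.07. The same scaling turned the calls over all genes from 587 higher and 255 lower to 336 higher and 347 lower. The calls rest on few libraries: without the pair low in choroid plexus 0 of 36 members and 104 of all genes (0.75%) passed. Leaving out 1 library, 0 members passed without shControl replicate 1 (1.7% of all genes), shControl replicate 2 (0.909%), shHepaCAM replicate 2 (3.04%) or shHepaCAM replicate 3 (2.37%). Cdh9 alone passed without shControl replicate 3 (0.707% of all genes), and 3 members passed without shHepaCAM replicate 1 (6.25%). Under other settings, 3 members passed with a pseudocount of 0.1 (5.97% of all genes), a filter at 5 RPKM (9.52%), quantile normalization (5.27%) and array weights (7.04%), and 4, Cdh10 added, passed in limma-voom on whole reads (7.78%). Cntnap1 and Cdh9 passed without the mean-variance trend (4.17%), when libraries were scaled to their median gene (4.93%) and with log2 Ttr, a choroid plexus transcript, as a covariate (4.5%). With the replicate number as a block Cntnap1 alone passed (1.13%), and with no filter 0 of 38 did (0.566%). At an unadjusted p of 0.05, 10 of 36 members passed, and 24.2% of all genes did.

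**Figure D1:**
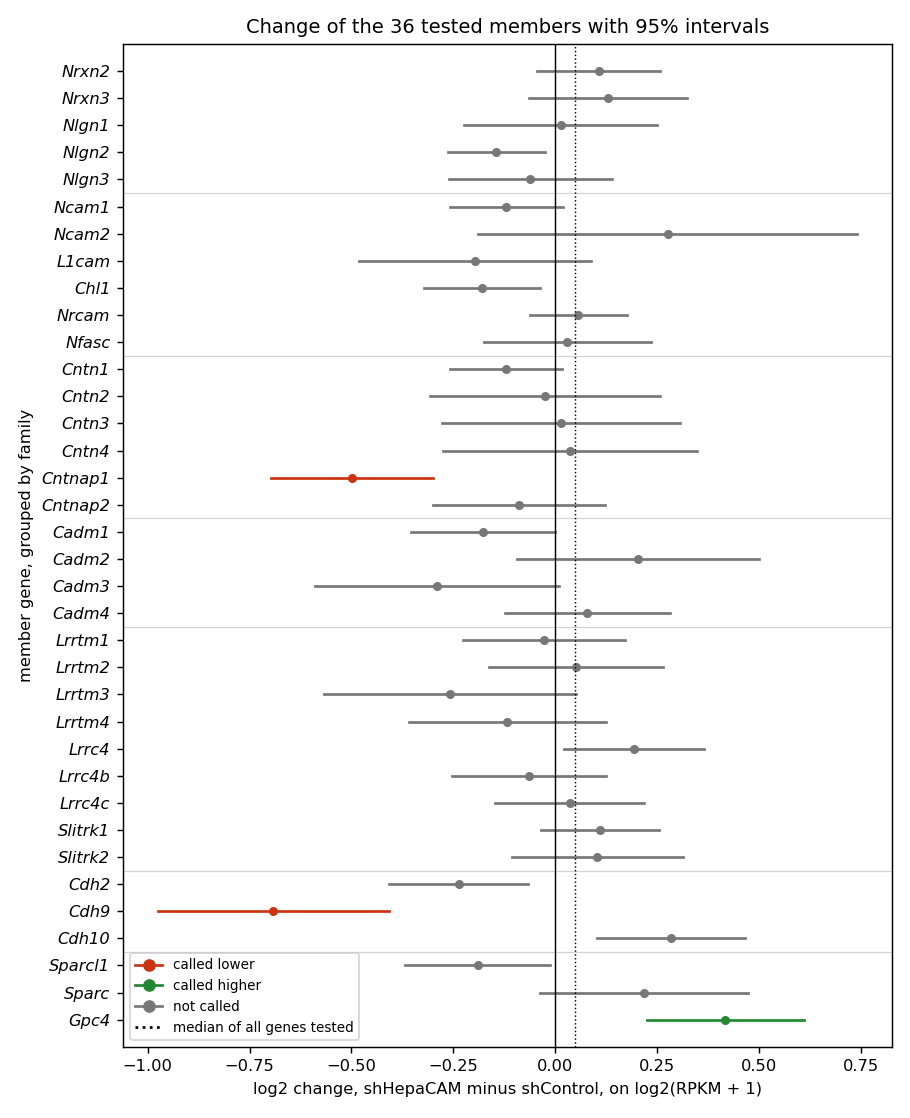
Change of each of the 36 tested members (shHepaCAM minus shControl, horizontal axis, on the log2(RPKM + 1) scale) with limma's 95% interval, grouped by family with grey lines; red marks genes called lower, green genes called higher, and the dotted line the median of all genes tested, 0.05. Cntnap1 and Cdh9 lie to the left at -0.50 and -0.69 and Gpc4 to the right at 0.42, while most other intervals include 0.

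In 15 of the 36 tested members the 3 knockdown libraries lay wholly outside the range of the 3 control libraries. That is 41.7% of members against 31.5% of all genes tested. By direction, 10 members (27.8%) lay lower, against 10.7% of all genes, and 5 (13.9%) lay higher, against 20.9%. When libraries were scaled to their median gene, 12 members (33.3%) lay lower against 18.7% of all genes, and 2 (5.56%) lay higher against 12.5%. In these bulk libraries, fewer cells of a type and less RNA per cell cannot be told apart. Among neuronal markers the summed levels of the lists differed in direction. The summed level of 8 pan-neuronal markers ran from 1158 to 1190 RPKM in control and from 753 to 968 RPKM in knockdown libraries, with 3 of the 8 (Tubb3, Snap25, Slc17a7) called lower, 0 called higher and none at 0. That of 6 markers of CA1 pyramidal cells, the injected field, was 159.995, 159.7 and 162 RPKM in control libraries. It was 169.9, 189 and 219 RPKM in knockdown libraries, a sum higher without overlap as deposited, with 0 markers called and none at 0. Scaling to the median gene multiplies shControl replicate 3 by 1.04 and shHepaCAM replicate 1 by 0.979, and the CA1 sums of the groups then overlap. Gene by gene, 7 of the 8 pan-neuronal markers lay lower without overlap, against 10.7% of all genes. Of the 6 CA1 markers, 1 lay higher and 0 lower, against 20.9% and 10.7% of all genes. Scaling libraries to their median gene left these counts of markers the same. Without the pair low in choroid plexus, 0 markers of either list were called. Their part in the changes of the members was not tested.

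**Figure D2:**
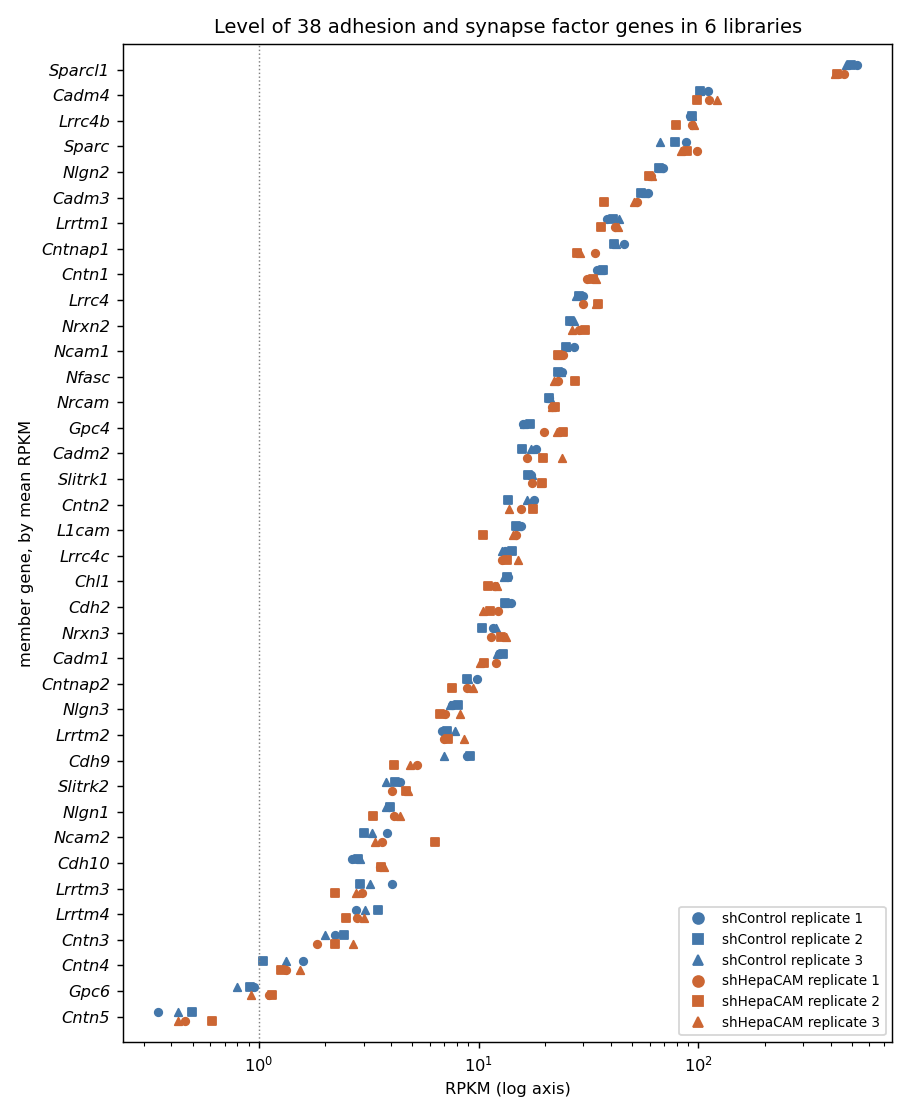
RPKM (log axis) of all 38 members in each of the 6 libraries, ordered by mean level; colour gives the group and symbol the replicate number, and the dotted line marks 1 RPKM. Levels run from 0.464 RPKM for Cntn5 to 466 RPKM for Sparcl1, and in 15 of the 36 tested members the groups do not overlap.

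Neurexins and neuroligins, the core bridge of the synapse, gave 0 calls among 5 genes tested, with a median change of 0.01. With 6.07% of all genes tested called, 0 calls in families this small say little, here and below. Nlgn2, the neuroligin of inhibitory synapses, was the most abundant of them. It stood at 69.3, 66.1 and 66.8 RPKM in control and at 61.0, 59.9 and 61.6 RPKM in knockdown libraries. All knockdown libraries lay below all control libraries, yet the difference was small, a log2 change of -0.14 (95% interval -0.26 to -0.03, limma adjusted p = 0.14). Nrxn2, a presynaptic neurexin, was at 26.2, 26.2 and 27.3 RPKM in control and at 28.8, 30.5 and 26.7 RPKM in knockdown libraries, and the groups overlapped. Nlgn1, the neuroligin of excitatory synapses, lay far lower, between 3.32 and 4.42 RPKM in all 6 libraries. Its interval ran from -0.22 to 0.25, so a change of that size in either direction could not be told from none. Nrxn3, a second presynaptic partner, and Nlgn3, found at both kinds of synapse, had changes of 0.13 and -0.06 and overlapping groups. Nlgn3 shares 3823 exon bases, 41.2% of its own, with Gm21986 on the same strand, which averaged 0.108 RPKM over the libraries.

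Leucine-rich synaptic proteins gave 0 calls among 9 genes, with a median change of 0.04. Lrrc4b (netrin-G ligand 3), which binds presynaptic receptor phosphatases, was the most abundant at 93.4 ± 1.13 RPKM in control and 89.6 ± 9.13 RPKM in knockdown libraries (SD, n = 3 each). Lrrtm1, a postsynaptic neurexin ligand, followed at 41.0 ± 2.58 and 40.3 ± 3.83 RPKM (SD, n = 3 each). For both, the groups overlapped. Lrrc4 (netrin-G ligand 2), a postsynaptic protein that binds netrin-G2 on axons, was at 29.97, 28.6 and 27.8 RPKM in control and at 29.999, 35.0 and 34.4 RPKM in knockdown libraries. Its groups did not overlap, though shHepaCAM replicate 1 lay next to the highest control library, and it did not pass (log2 change 0.19, limma adjusted p = 0.166). Slitrk1, another postsynaptic ligand of receptor phosphatases, had values of 17.4, 16.8 and 17.5 RPKM in control and 17.5, 19.4 and 19.1 RPKM in knockdown libraries, with no overlap but a gap of less than 0.1 RPKM (log2 change 0.11, limma adjusted p = 0.322). Lrrtm2, Lrrtm3, Lrrtm4, Lrrc4c and Slitrk2 overlapped between the groups, with changes from -0.26 for Lrrtm3 to 0.10 for Slitrk2. Lrrtm4 shares 1543 exon bases, 25.1% of its own, with Gm4409 on the opposite strand, a gene for which no level was given.

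SynCAMs, Ig adhesion proteins that span the cleft by binding their own family, gave 0 calls among 4 genes, with values on both sides of 0. Cadm4, also known from the contact of myelinating glia with axons, was second in level among all 38 members, at 105 ± 5.46 and 111 ± 11.4 RPKM (SD, n = 3 each). Cadm3, enriched in neurons, was at 59.1, 55.0 and 57.0 RPKM in control and at 52.7, 37.2 and 51.0 RPKM in knockdown libraries. Its groups did not overlap, and shHepaCAM replicate 2 lay well below every other library. The log2 change was -0.29 (95% interval -0.59 to 0.01, limma adjusted p = 0.218), and -0.13 without shHepaCAM replicate 2. Cadm3 shares 361 exon bases with Ackr1 on the same strand in the annotation used, and reads from that stretch cannot be told apart. Cadm1, the best known synaptic SynCAM, was at 12.4, 12.9 and 12.2 RPKM in control and 12.0, 10.6 and 10.2 RPKM in knockdown libraries. That gave a change of -0.18 with no overlap, and it did not pass (limma adjusted p = 0.204). Cadm2, its relative on axons, had a change of 0.20 with overlapping groups, a value that leaving out shHepaCAM replicate 3 moved to 0.074 and leaving out shHepaCAM replicate 1 to 0.32.

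In the NCAM and L1 groups, 0 of 6 genes passed, and the median change was -0.05. Ncam1, a broadly expressed neural adhesion molecule, was at 27.1, 24.905 and 24.9 RPKM in control and at 24.3, 23.1 and 23.1 RPKM in knockdown libraries (log2 change -0.12, limma adjusted p = 0.262). Chl1, the close homologue of L1, was at 13.6, 13.5 and 13.1 RPKM in control and at 11.9, 11.1 and 12.1 RPKM in knockdown libraries (log2 change -0.18, limma adjusted p = 0.131). Nrcam, a neuronal L1 relative of the initial segment and nodes, went the other way, at 20.9, 20.9 and 21.1 RPKM in control and 21.6, 22.3 and 21.6 RPKM in knockdown libraries (log2 change 0.06, limma adjusted p = 0.53). In all 3 the groups did not overlap, and when libraries were scaled to their median gene the sign of Nrcam turned to -0.03. That is 50% of the 6 genes, against 31.5% of all genes tested, 10.7% lower and 20.9% higher. Nfasc, which encodes neurofascin of the initial segment and of paranodal glia, averaged 23.6 ± 0.468 and 24.2 ± 2.96 RPKM (SD, n = 3 each) with overlapping groups. L1cam, the founding member of axon adhesion molecules, stood at 14.8, 10.5 and 14.4 RPKM in knockdown libraries against 14.7 to 15.7 RPKM in control. Ncam2, known from olfactory axons, stood at 3.62, 6.33 and 3.37 RPKM in those libraries against 3.004 to 3.85 RPKM in control. For L1cam and Ncam2 it was shHepaCAM replicate 2 that lay away from the others, low for the first and high for the second.

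Among contactins and their associated proteins, 1 of 6 genes tested fell, and the median change was -0.06. That is 16.7%, against 1.84% of all genes tested called lower. Cntnap1 (ENSMUSG00000017167), which encodes Caspr, the axonal protein that forms the paranodal junction together with contactin 1 and glial neurofascin, was at 45.8, 41.3 and 42.2 RPKM in control. It was at 34.0, 28.1 and 28.8 RPKM in knockdown libraries. Each knockdown library lay below each control library, and the mean was 29.7% lower. Between 2661 and 4606 reads stood behind each value. The log2 change was -0.50 (SE 0.08, 95% interval -0.70 to -0.30, limma adjusted p = 0.0238), with an exact two-sided permutation p of 0.1, the least that 3 libraries against 3 allow. The adjusted p was 0.0764, 0.0813, 0.095, 0.0579 and 0.0673 without shControl replicate 1, shControl replicate 2, shControl replicate 3, shHepaCAM replicate 2 and shHepaCAM replicate 3, and 0.138 without the pair low in choroid plexus, where the change was -0.42. Scaling each library to its median gene, or quantile normalization, left it called, at -0.59 and -0.51. Cntnap1 shares 233 exon bases, 4% of its own, with Plekhh3 on the opposite strand, and whether reads were counted by strand is not stated. Plekhh3 averaged 5.38 RPKM in control and 8.76 RPKM in knockdown libraries, and its part in the level of Cntnap1 was not tested.

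None of the 3 genes known to form junctions with Cntnap1 or its relatives that are members (Cntn1, Nfasc, Cntn2) passed. Cntn1, its binding partner on the axon, was at 34.4, 36.7 and 36.2 RPKM in control and 31.2, 33.2 and 34.1 RPKM in knockdown libraries. Its groups just failed to overlap, and its change of -0.12 did not pass (limma adjusted p = 0.255). Within each library the ratio of Cntnap1 to Nfasc was 1.91, 1.79 and 1.78 in control and 1.48, 1.02 and 1.30 in knockdown libraries. That of Cntnap1 to Cntn1 was 1.33, 1.12 and 1.16 in control and 1.09, 0.845 and 0.846 in knockdown libraries. For the ratio to Cntn1, shHepaCAM replicate 1 lay close to the lowest control library. These ratios need no scaling between libraries, and both were lower in every knockdown library. Both were chosen after the values were seen and are given without a test. Cntnap2, which places potassium channels beside the paranode, was at 9.21 ± 0.543 and 8.62 ± 0.956 RPKM (SD, n = 3 each) and did not pass. Cntn2, its partner at the juxtaparanode, had a change of -0.02, and the rarer Cntn3 and Cntn4 had changes of 0.01 and 0.04, all with overlapping groups. Cntn5 lay under the filter, with 0.348, 0.496 and 0.429 RPKM in control and 0.460, 0.615 and 0.431 RPKM in knockdown libraries, values that rest on 27 to 45 reads a library. Markers of mature oligodendrocytes, the cells that form the glial side of the paranode, summed to between 918 and 1148 RPKM in control and between 953 and 1436 RPKM in knockdown libraries, with 0 of 8 called and none at 0.

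**Figure D3:**
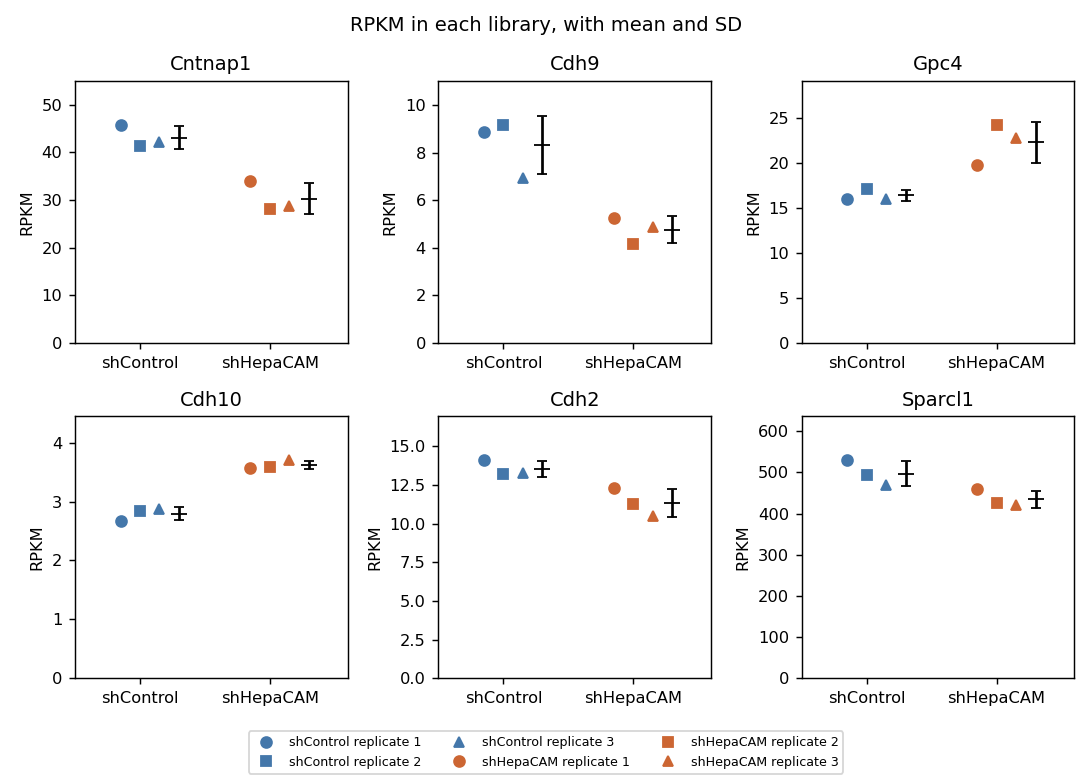
RPKM of 6 members in each library, with the group mean and SD as a black bar beside the points; symbols give the replicate number. For Cntnap1, Cdh9 and Gpc4, the called members, every shHepaCAM library lies outside the range of the shControl libraries, and the same is so for Cdh10, Cdh2 and Sparcl1, which did not pass.

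The 3 cadherins, calcium-dependent adhesion proteins, all showed groups that did not overlap, 2 lower and 1 higher, and only Cdh9 passed. Over all genes tested, 31.5% did not overlap, 10.7% lower and 20.9% higher. Cdh9 (ENSMUSG00000025370, chromosome 15), a type II cadherin known for the mossy fibre synapses of dentate granule cells on CA3 neurons, was at 8.86, 9.17 and 6.94 RPKM in control and at 5.26, 4.14 and 4.87 RPKM in knockdown libraries. Every knockdown library was lower than every control library, and the mean was 42.8% lower, the largest fall among the 36 tested members on the log2(RPKM + 1) scale. Between 215 and 512 reads stood behind each value. Cdh9 shares 224 exon bases, 6.33% of its own, with Gm49127 on the opposite strand, a gene for which no level was given. The log2 change was -0.69 (SE 0.12, 95% interval -0.97 to -0.41, limma adjusted p = 0.025), with an exact two-sided permutation p of 0.1. It was -0.80 without shControl replicate 3 (adjusted p = 0.0443) and did not pass without shControl replicate 1, shControl replicate 2, shHepaCAM replicate 2 or shHepaCAM replicate 3 (adjusted p of 0.0805, 0.0981, 0.062 and 0.0632). Without the pair low in choroid plexus it stood at -0.66 (adjusted p = 0.13), and with the replicate block the adjusted p was 0.0741.

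Markers of the cells that carry these synapses were looked at beside Cdh9. The summed level of 8 CA2 and CA3 markers was 114 to 119 RPKM in control and 107, 79.7 and 113 RPKM in knockdown libraries, with 0 of 7 tested called and 4 of the 7 lower without overlap between the groups, against 10.7% of all genes tested. That of 7 dentate granule markers ran from 110.2 to 139.9 RPKM in control and from 110.6 to 139.7 RPKM in knockdown libraries, where Trpc6 was called higher and 0 lower, and 2 of 7 lay lower and 1 higher without overlap. Without the pair low in choroid plexus, 0 markers of either list were called. No marker of these lists was at 0, and their part in the level of Cdh9 was not tested.

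Cdh10 (ENSMUSG00000022321, also chromosome 15), another type II cadherin of neurons, lay the other way. It stood at 2.66, 2.84 and 2.88 RPKM in control and at 3.57, 3.59 and 3.70 RPKM in knockdown libraries. The libraries of each group lay close together and did not overlap, but the change did not pass (log2 change 0.29, 95% interval 0.10 to 0.47, limma adjusted p = 0.0778; adjusted p = 0.0274 in limma-voom on whole reads). The ratio of Cdh9 to Cdh10 within each library was 3.33, 3.23 and 2.41 in control and 1.47, 1.15 and 1.32 in knockdown libraries. It was thus 2.99 ± 0.502 against 1.31 ± 0.16 (SD, n = 3 each), a pair chosen after the values were seen and given without a test. Cdh2 (N-cadherin), the main cadherin of excitatory synapses, was at 14.1, 13.21 and 13.24 RPKM in control and 12.3, 11.2 and 10.5 RPKM in knockdown libraries. It lay lower throughout and did not pass (log2 change -0.24, 95% interval -0.41 to -0.07, limma adjusted p = 0.105).

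The 250 bases before the annotated start of Cdh9 and Cdh10 are shown because these relatives on the same chromosome lay in opposite directions. They are RefSeq sequences on build GRCm38.p6, 5′ to 3′ on the strand of the gene, at chr15:16728665-16728914 and chr15:18820079-18820328, both on the plus strand. Capitals mark matches, on either strand, to any of 5 motifs searched, none of which contains another. They are the CCAAT box (CCAAT), the TATA box (TATAAA), the GC box (GGGCGG), the cAMP response element (TGACGTCA) and a form of the sterol response element (TCACNCCAC).
Cdh9: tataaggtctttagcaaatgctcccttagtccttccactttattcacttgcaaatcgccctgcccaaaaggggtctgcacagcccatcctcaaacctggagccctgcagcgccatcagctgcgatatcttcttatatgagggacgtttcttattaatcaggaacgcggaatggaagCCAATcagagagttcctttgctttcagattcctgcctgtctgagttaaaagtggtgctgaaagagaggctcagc
Cdh10: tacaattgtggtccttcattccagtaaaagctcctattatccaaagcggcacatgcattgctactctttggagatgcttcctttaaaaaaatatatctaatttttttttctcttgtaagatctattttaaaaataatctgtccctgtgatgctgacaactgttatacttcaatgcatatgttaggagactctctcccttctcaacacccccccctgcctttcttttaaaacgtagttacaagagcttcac
The Cdh9 window holds 1 CCAAT match, at position -74 from the start, a motif present in 33.8% of all 32851 windows of this length, and 48% of its bases are G or C. The Cdh10 window holds no match to any of the 5 and is 36.8% G or C, and the median of all windows is 52.4%. Promoter entries were found for 29 of the 38 members, with 41 windows in all. Among these windows CCAAT was in 26.8%, GGGCGG in 29.3% against 32.7% of all windows, TATAAA in 4.88% against 12.4%, TGACGTCA in 2.44% against 1.55%, and TCACNCCAC in 0 of 41 against 1.05%. A match is a run of letters and not a site that is known to be used.

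Among the astrocyte synapse factors, Gpc4 rose while Sparcl1 and Sparc lay on opposite sides of their control level. Bulk libraries do not show which cells carry the RNA of these factors. Gpc4 (ENSMUSG00000031119, chromosome X), a glypican that astrocytes release to recruit glutamate receptors, was at 15.96, 17.1 and 16.02 RPKM in control. It was at 19.8, 24.2 and 22.7 RPKM in knockdown libraries. Every knockdown library was higher than every control library, with the means at 16.4 ± 0.651 and 22.3 ± 2.25 RPKM (SD, n = 3 each). Between 633 and 1036 reads stood behind each value. The log2 change was 0.42 (SE 0.08, 95% interval 0.22 to 0.61, limma adjusted p = 0.0344), with an exact two-sided permutation p of 0.1. This call was the least stable of the 3: the adjusted p was 0.0571 when libraries were scaled to their median gene, 0.0559 without the mean-variance trend, 0.0741 with the replicate block and 0.0551 with log2 Ttr as a covariate. Leaving out 1 library gave 0.103, 0.0994, 0.128, 0.0706 and 0.0913 for shControl replicate 1, shControl replicate 2, shControl replicate 3, shHepaCAM replicate 2 and shHepaCAM replicate 3, and it was 0.176 without the pair low in choroid plexus. Gpc6, the other astrocyte glypican of the set, lay under the filter at 0.948, 0.911 and 0.797 RPKM in control and 1.11, 1.15 and 0.926 RPKM in knockdown libraries, with overlapping groups.

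The window before the Gpc4 start is shown as that of the member that rose. It lies at chrX:52164924-52165173 on the minus strand of GRCm38.p6, is given 5′ to 3′ on the strand of the gene, and its capitals mark the same 5 motifs.
Gpc4: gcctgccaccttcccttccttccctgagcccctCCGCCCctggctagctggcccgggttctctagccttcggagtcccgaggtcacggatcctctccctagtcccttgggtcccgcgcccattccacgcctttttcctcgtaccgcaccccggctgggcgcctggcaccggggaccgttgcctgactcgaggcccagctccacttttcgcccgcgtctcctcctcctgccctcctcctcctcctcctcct
It holds 1 match to GGGCGG, on the strand opposite to the gene, at position -217 from the start, and 68.4% of its bases are G or C.

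Sparcl1 was the most abundant member. It was at 529.7, 493 and 468 RPKM in control and at 459, 426 and 420.3 RPKM in knockdown libraries. The groups did not overlap, but the log2 change of -0.19 did not pass (95% interval -0.37 to -0.01, limma adjusted p = 0.181). Sparc, its antagonist, was at 87.8, 78.2 and 67.2 RPKM in control and 99.1, 88.6 and 83.3 RPKM in knockdown libraries, with overlapping groups (log2 change 0.22, limma adjusted p = 0.271). The change of Sparc was 0.12 without shControl replicate 3 and 0.36 without the pair low in choroid plexus. Set against each other within a library, Sparcl1 to Sparc stood at 6.03, 6.30 and 6.96 in control and at 4.63, 4.81 and 5.05 in knockdown libraries. This ratio separated the groups where Sparc alone did not; it too was chosen after the values were seen and is given without a test. Sparc is also made by microglia and vessels. Of 9 astrocyte markers, 7 had positive and 2 negative log2 changes, with a median of 0.12. Their summed level ran from 736 to 821 RPKM in control and from 741 to 881 RPKM in knockdown libraries, with Slc1a2 called lower and 0 called higher. That of 9 microglia markers ran from 341 to 397 RPKM and from 649.9 to 778 RPKM, with 7 called higher (Cx3cr1, Csf1r, C1qa, C1qb, Ctss, Trem2, Aif1) and 0 lower, and that of 8 endothelial and pericyte markers from 62.8 to 79.6 RPKM and from 59.7 to 80.9 RPKM, with 0 called. Without the pair low in choroid plexus, 5 microglia markers (C1qa, C1qb, Ctss, Trem2, Aif1) were called higher, and 0 astrocyte or endothelial markers were called. No marker of these lists was at 0, and their part in the levels of Sparc, Sparcl1 and Gpc4 was not tested.

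**Figure D4:**
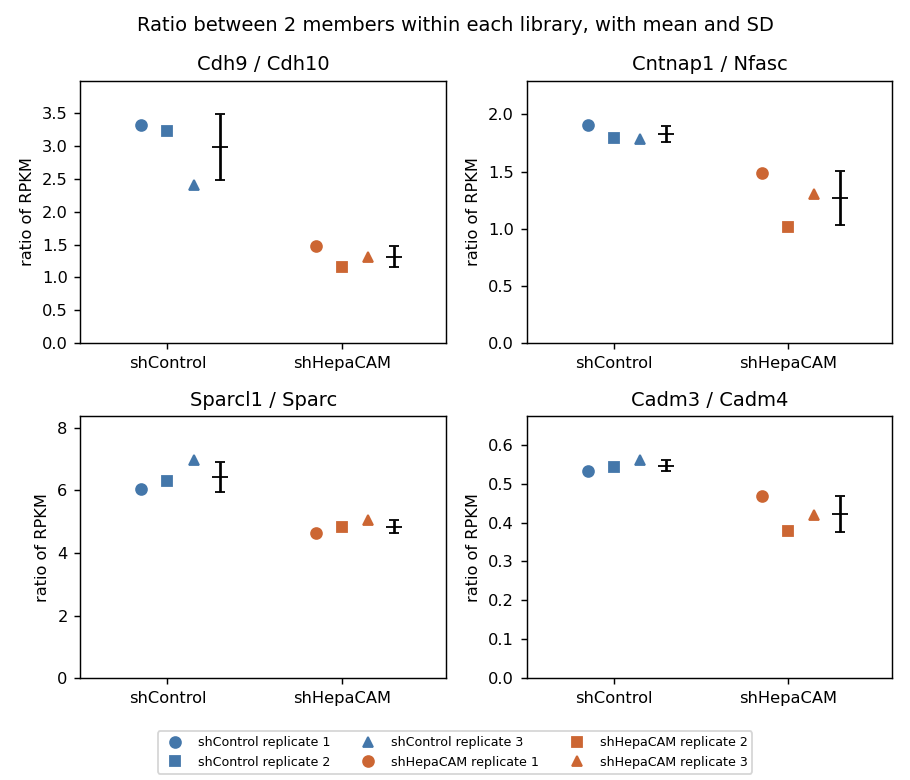
Ratio of the RPKM of 2 members within each library, with the group mean and SD as a black bar; symbols give the replicate number. In all 4 ratios every shHepaCAM library lies below every shControl library, with Cdh9 to Cdh10 at 2.99 in control and 1.31 in knockdown libraries. The pairs were chosen after the values were seen. Ratios not drawn are Cntnap1 to Cntn1, which is also lower, and Nlgn2 to Nlgn1, Gpc4 to Gpc6 and Lrrc4 to Lrrc4b, whose groups overlap.

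The ratio of Cadm3 to Cadm4, the neuronal and the glial SynCAM, was 0.545 ± 0.014 in control and 0.422 ± 0.0461 in knockdown libraries (SD, n = 3 each). Its groups did not overlap, and those of Cadm3 alone did not either. By contrast, the ratio of Nlgn2 to Nlgn1 overlapped, at 17.4 ± 0.509 and 15.6 ± 2.15 (SD, n = 3 each), as did that of Gpc4 to Gpc6, at 18.6 ± 1.65 and 21.1 ± 3.40 (SD, n = 3 each). So did the ratio of Lrrc4 to Lrrc4b, at 0.309 ± 0.0153 and 0.374 ± 0.0633 (SD, n = 3 each). These pairs, Cadm3 to Cadm4 included, were chosen after the values were seen and are given without a test.

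Most members varied more among knockdown than among control libraries. On the log2(RPKM + 1) scale, 28 of 38 members (73.7%) had a larger SD in knockdown libraries, against 64.9% of all genes tested. shHepaCAM replicate 2 held the highest value of the 6 libraries for 9 members and the lowest for 14, so that it was at an end for 23 of 38. Over all genes tested it was at an end for 52.1%, against 60.5% of the members. shControl replicate 1 was at an end for 17 members (44.7%, against 28.7% of all genes), 12 of them as the highest. shHepaCAM replicate 3 was so for 16 (42.1% against 34.9%), 11 of them as the highest, and shControl replicate 2 for 11 (28.9% against 32%). shControl replicate 3 was at an end for 5 members (13.2% against 31.2%) and shHepaCAM replicate 1 for 4 (10.5% against 21.1%). shHepaCAM replicate 2 also had the lowest pan-neuronal sum, at 753 RPKM, the lowest CA2 and CA3 sum, at 79.7 RPKM, and the lowest sum of 8 interneuron markers, at 502 RPKM against 676 to 739 RPKM in the other libraries.

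**Figure D5:**
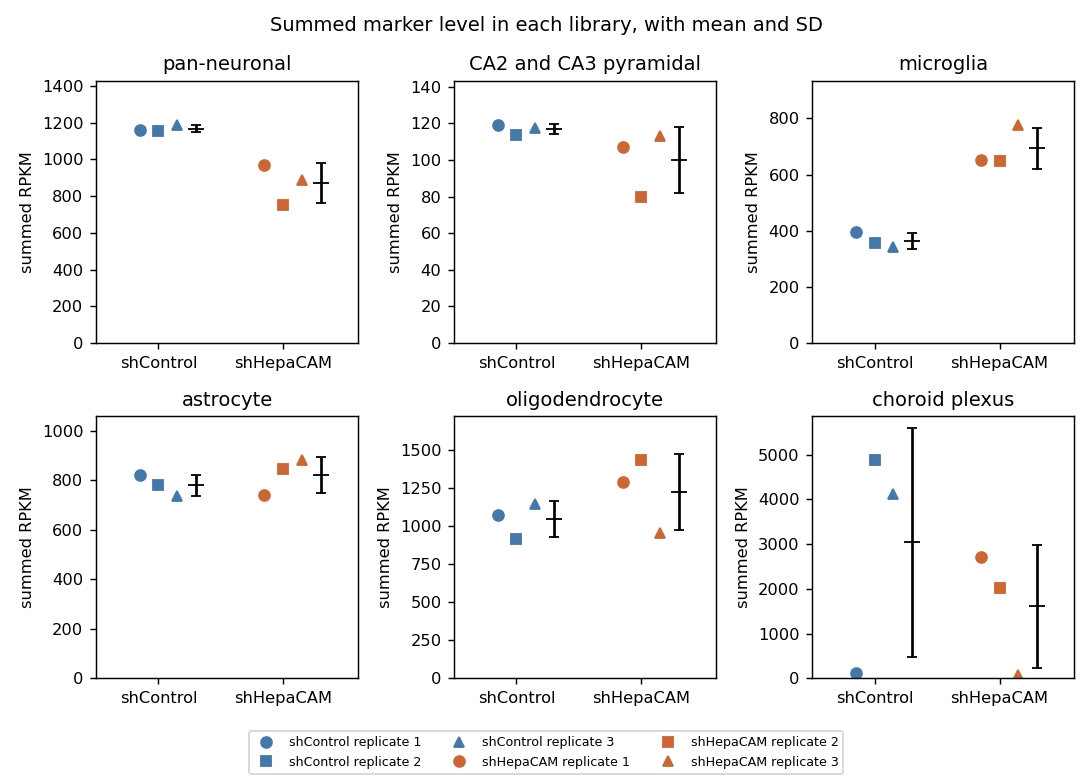
Summed RPKM of 6 lists of cell type markers in each library, with the group mean and SD as a black bar; symbols give the replicate number. Pan-neuronal sums lie lower (753 to 968 RPKM against 1158 to 1190 RPKM) and microglia sums higher in shHepaCAM libraries, while choroid plexus sums are low in 1 library of each group.

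Few genes that work with the members passed. Of 127 partner genes in 9 lists, 118 were tested, and 2 were called higher and 3 lower, which is 4.24% against 6.07% of all genes tested. Their median change was 0.02. Among 18 partners of neurexins and neuroligins, 2 fell and 0 rose, with a median of -0.13. Called lower were thus 11.1% of this list, against 1.84% of all genes tested, and called higher 0 against 4.23%. Clstn1 (calsyntenin 1), a postsynaptic cadherin-like protein, stood at 224, 225 and 214 RPKM in control and at 177, 149 and 163 RPKM in knockdown libraries, 26.3% lower (log2 change -0.44, limma adjusted p = 0.024). Mdga1, which binds Nlgn2 and blocks its access to neurexins, stood at 11.4, 11.8 and 12.5 RPKM in control and at 8.52, 7.45 and 9.37 RPKM in knockdown libraries, 29.2% lower (log2 change -0.46, limma adjusted p = 0.033). For both genes the groups lay apart.

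Among 14 tested astrocyte synapse factors that are not members, Gpc1 fell and Tgfb1 rose, with a median of 0.08. Each call is 7.14% of the list, against 1.84% of all genes tested called lower and 4.23% called higher. Gpc1, a glypican better known from neurons, was at 38.1, 35.5 and 37.0 RPKM in control and 29.1, 26.8 and 29.2 RPKM in knockdown libraries, so it lay opposite to Gpc4 (log2 change -0.37, limma adjusted p = 0.0211). Tgfb1, a growth factor that microglia also make, was at 2.33, 1.99 and 2.21 RPKM in control and 3.50, 4.13 and 3.49 RPKM in knockdown libraries (log2 change 0.57, limma adjusted p = 0.024). Lgi2, a secreted ligand of the ADAM22 family, rose alone among 28 other leucine-rich and Ig adhesion genes, from 7.60, 5.67 and 6.33 RPKM to 9.55, 12.0 and 10.3 RPKM (log2 change 0.63, limma adjusted p = 0.031; median of the list 0.02). Called higher were thus 3.57% of that list, against 4.23% of all genes tested. The other 6 lists had 0 calls in either direction, against 6.07% of all genes tested. Receptor phosphatases with their partners had a median of 0.10 over 13 genes, further contactins -0.12 over 4, and further cadherins and catenins -0.04 over 11. Ankyrin, node and paranode partners had a median of 0.02 over 10, synaptic scaffolds 0.13 over 16, and shedding proteases -0.04 over 4. In the scaffold list 10 of 16 genes had groups that did not overlap, 8 of them higher, against 31.5% of all genes tested in either direction and 20.9% higher. When libraries were scaled to their median gene, 7 of the 16 lay higher and 3 lower, against 12.5% and 18.7% of all genes. Without the pair low in choroid plexus, 0 of the partner genes passed.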

How the data were processed

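RNA sequencing libraries of hippocampus, 3 shControl and 3 shHepaCAM, were grouped by their titles. The deposited values are RPKM as the authors computed them, in 1 file per library. TopHat2 2.0.12, Bowtie2 2.0.6 and build mm39 are named in the submitters' processing notes. The sources used here do not give the read counting, and the unit was read from the values: with GENCODE M21 exon lengths, 27390 genes came out as whole reads within 0.01 read in every library, and 2330 more with a length of their own, 99.5% of 29872. This gave the depths and the reads behind each value. No library repeated another (smallest chi-square per degree of freedom 3.89). Symbols were matched for 29805 identifiers.

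Groups were compared by limma 3.58.1 (R 4.3.3) on log2(RPKM + 1) with its mean-variance trend, a scale that understates changes of low genes. It ran on 13864 genes that averaged 1 RPKM or more, with Benjamini-Hochberg adjustment over all of them and a threshold of 0.05; 36 of 38 members were tested. Members and lists were chosen with earlier results of these data known. All members are named, with values per library for those called or with groups that do not overlap; of partner lists, at most 3 called genes each. The code of the fit was run on simulated libraries with known changes. Their spread was set alike for every gene, unlike these libraries, so that run does not bear on the calls. Same-numbered libraries did not deviate together, so the replicate number served only in an alternative. Alternatives were a pseudocount of 0.1, no filter, a filter at 5 RPKM, no trend, 2 scalings, array weights, the replicate block and leaving out each library; 3 were added after the data were seen (limma-voom on whole reads, log2 Ttr as a covariate, and leaving out the pair low in choroid plexus). Figures were drawn with matplotlib 3.10.9.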

Additional observations from a re-analysis of the deposited data

How the results depend on the processing

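Counts of calls moved with the processing more than log2 changes did. Over all genes 842 were called, against 169 with no filter, 157 with the replicate block, 104 without the pair low in choroid plexus, and 98 to 867 with 1 library left out. Members called higher, 1, became 0 with no filter, without trend, with scaling to the median gene, with the replicate block, with log2 Ttr as a covariate and without both low libraries, 2 in limma-voom, and 0 to 1 with 1 library left out. Members called lower, 2, became 0 with no filter and without both low libraries, 1 with the replicate block, and 0 to 2 with 1 library left out. Partner genes called higher, 2, became 0 with no filter, with the replicate block and without both low libraries, 1 with the filter at 5 RPKM, and 0 to 3 with 1 library left out; those called lower, 3, became 0 with no filter, with the replicate block and without both low libraries, and 0 to 5 with 1 library left out. The member median of -0.01 was -0.044 with the filter at 5 RPKM, -0.071 with quantile normalization, -0.083 with scaling to the median gene, -0.068 without both low libraries, and -0.066 to 0.019 with 1 library left out. The median of all genes tested, 0.049, was 0.034, -0.018, -0.026 and 0.061 under those settings in the same order, and 0.030 to 0.060 with 1 library left out. Hepacam kept its direction throughout and missed the threshold at -0.54 without both low libraries (adjusted p = 0.0695) and at -0.62 without shControl replicate 3 (adjusted p = 0.0526), with values of -0.68 to -0.58 over single libraries left out. Cntnap1, Cdh9 and Gpc4 kept their direction in all 17 alternatives and were called in 10, 10 and 6 of them. With no filter more genes are tested, and leaving out libraries leaves fewer samples; otherwise the cause was not tested. With the replicate block 157 genes, Cntnap1 among them, were called; same-numbered libraries correlated at -0.21, 0.0155 and -0.145 in their deviations from the group means, so the numbers do not pair them. Some members that did not pass changed sign, from main changes of -0.06 (Lrrc4b) to 0.08 (Cadm4), with Cntn2 reaching 0.14 without both low libraries. These were: with quantile normalization, Nlgn1 -0.075, Nfasc -0.011, Cntn3 -0.082, Cntn4 -0.064, Lrrtm2 -0.018, Lrrc4c -0.013. With scaling to the median gene, Nlgn1 -0.057, Nrcam -0.029, Nfasc -0.056, Cntn3 -0.047, Cntn4 -0.013, Cadm4 -0.0091, Lrrtm2 -0.026, Lrrc4c -0.047. Without both low libraries, Nlgn1 -0.050, Cntn2 0.14, Cntn3 -0.080, Lrrtm2 -0.066, Lrrc4c -0.036. With log2 Ttr as a covariate, Nlgn1 -0.0056, Cntn3 -0.013. With array weights, Nfasc -0.012. With 1 library left out their ranges were Nlgn1 -0.055 to 0.11, Nfasc -0.064 to 0.089, Cntn2 -0.13 to 0.058, Cntn3 -0.081 to 0.11, Cntn4 -0.051 to 0.12, Lrrtm1 -0.077 to 0.051, Lrrtm2 -0.027 to 0.10, Lrrc4b -0.11 to 0.022, Lrrc4c -0.026 to 0.086.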
